A study of Rattus norvegicus with 6 samples.

Results

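Adrenergic and dopamine receptors carry the signals of noradrenaline and dopamine. Their transcripts were measured by RNA sequencing in rat hippocampus after single prolonged stress (SPS), a sequence of stressors that models post-traumatic stress in rodents. The group consists of 9 receptor genes, chosen by symbol (Drd1, Drd2, Drd5, Adra1a, Adra1b, Adra1d, Adra2a, Adra2c and Adrb1), each matched by 1 row of the 22062 protein-coding genes in the deposited expression table. SPS rats, of the Sprague Dawley strain, were immobilised for 2 hours, made to swim for 20 minutes in water of 24 °C and 40 cm depth, rested for 15 minutes and were anaesthetised until unconscious, while Control rats of the same strain stayed unhandled in their home cages. RNA was sequenced from hippocampus of 3 SPS and 3 Control samples. The labels give no age and no time between stress and tissue collection, and they leave unstated whether samples came from separate animals, so the p-values cover only the spread among these libraries, which may be technical.

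Noradrenaline reaches the hippocampus from the locus coeruleus, and dopamine from the midbrain and the same locus coeruleus fibres. The receptors are membrane proteins that act through G proteins: β receptors and the D1-class dopamine receptors, encoded by Drd1 and Drd5, raise cyclic AMP, the α2 receptors and the D2 receptor lower it, and the α1 receptors activate phospholipase C. In the hippocampus these receptors are known for their part in arousal, synaptic plasticity and the memory of aversive events.

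No receptor transcript differed between SPS and Control by more than the spread between samples. The α1D receptor Adra1d and the α2C receptor Adra2c were the most abundant in both groups, and over the 6 libraries together the β1 receptor Adrb1 and the α2A receptor Adra2a came next by mean level. The dopamine receptors and Adra1b were near the limit of measurement. Adra1a and Adra1b were too low to measure by the limit used here, which was under 10 reads in at least 3 of the 6 libraries. In SPS replicate 2 the table lists 4 of the 9 receptors (Drd1, Drd5, Adra1a and Adra1b) at 0 reads, and no receptor was at 0 in any other library. Of the 8 receptors with enough reads to be tested, 3 were at 0 there, beside 7.94% of all tested genes. Of the same 8, 5 had their lowest CPM, counts scaled to library size, there, beside 33.2% of tested genes. These shares cover genes of every level, and no share was taken among genes as low as these receptors. The other 5 libraries predicted only 10.2 reads there for Drd5, 12.5 for Adra1b, 20.9 for Drd1 and 34.7 for Adra1a. For Adra1a the prediction came mostly from SPS and Control replicate 3, at 22.5 and 18.3 CPM. In SPS replicate 1 and Control replicates 1 and 2 Adra1a had at most 2.27 CPM. For Adra1b the prediction came mostly from Control replicate 2, at 10.5 CPM.

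Libraries held between 4081184 reads (SPS replicate 2) and 11838767 reads (Control replicate 1), recovered from the deposited estimated counts. Before any receptor is compared, SPS replicate 2 has to be set apart in how often it lists genes at 0. Among genes for which the other 5 libraries predicted at least 20 reads, 4.49% were at 0 in SPS replicate 2 (493 of 10985), against 0.384% and 0.687% in SPS replicates 1 and 3 and 0.357% to 1.103% in Control libraries. They included genes that most cells use, such as Cog3, a Golgi tethering subunit, with 112 reads predicted, and Ipo11, a nuclear import receptor, with 110 predicted (both chosen after their values were seen). A 0 in this library is therefore given below as a listed value, not as absence of the transcript. Choroid plexus markers, from the epithelium that secretes cerebrospinal fluid, summed to 33726 CPM there and to between 25.6 and 143 CPM in the other 5 libraries. Its oligodendrocyte markers summed to 30330 CPM, against 12727 and 15376 CPM in the other SPS and 8519 to 12960 CPM in Control libraries, and its ependymal markers to 116 CPM, against 30.7 and 55.1 CPM in the other SPS and 14.0 to 25.1 CPM in Control libraries. At an unadjusted p under 0.05 in edgeR, 4 of the 8 oligodendrocyte markers were higher in SPS. So were 3 of the 6 tested choroid plexus and 2 of the 4 tested ependymal markers. Of all tested genes, 0.338% passed that limit in either direction. The choroid plexus sums of SPS replicates 1 and 3, 39.0 and 42.9 CPM, lay within the Control range of 25.6 to 143 CPM. The part of choroid plexus, oligodendrocyte and ependymal cells in the receptor levels was not tested. Of the markers of hippocampal neurons, Wfs1, Neurod6, Prox1 and Zbtb20 were detected in all 6 libraries, while Fibcd1 was at 0 in SPS replicate 2. Prox1, a dentate granule cell factor, ranged from 5.68 CPM in Control replicate 2 to 437 CPM in SPS replicate 3. Zbtb20 ranged from 3.94 CPM in Control replicate 1 to 509 CPM in Control replicate 3.

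The α1 receptors couple to phospholipase C. Adra1d (ENSRNOG00000021256, chromosome 3, 124129558 to 124145566 in the coordinates of the deposited table) had the highest FPKM, fragments per kilobase of transcript scaled to library size, of the 9 genes: 28.2, 13.8 and 21.5 FPKM in SPS replicates 1 to 3, against 28.4, 18.9 and 31.4 FPKM in Control replicates 1 to 3. The lowest level of each group was in its replicate 2, and the groups overlapped. The group means were 21.2 ± 7.22 FPKM in SPS and 26.2 ± 6.52 FPKM in Control (SD, n = 3 each). This receptor rested on 169 to 1008 reads per library, so counting error was small beside the spread between samples. Its log2 fold change was −0.35 ± 0.42 (SE, edgeR quasi-likelihood test on counts, unadjusted p = 0.434, Benjamini-Hochberg adjusted p = 1.00), and −0.09 without SPS replicate 2. With the replicate number as a block it was −0.36 (edgeR, unadjusted p = 0.127, adjusted p = 0.967). Adra1d was the only receptor with a lower CPM in SPS in all 3 same-numbered pairs, by −0.05, −0.46 and −0.59 on the log2 scale for numbers 1, 2 and 3. Among all tested genes 13.2% were lower in all 3 pairs, so 1 of the 8 tested receptors is close to that share.

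Adra1a (ENSRNOG00000009522, chromosome 15, 43298794 to 43392451), the α1A receptor, divided the libraries by replicate number and not by group. It had 1.11, 0 and 10.4 FPKM in SPS replicates 1 to 3, against 0.334, 0.277 and 8.22 FPKM in Control replicates 1 to 3. The reads were 25, 0 and 125 in SPS and 8, 3 and 83 in Control, so the gene was well covered only in the libraries numbered 3. Within that number SPS was 0.29 higher on the log2 CPM scale. The fit gave 0.36 ± 1.81 (log2 fold change ± SE; edgeR, unadjusted p = 0.848, adjusted p = 1.00), and the value was 3.66 without Control replicate 3 and −2.41 without SPS replicate 3, the 2 libraries that hold its reads. Markers of dentate granule cells, the principal neurons of the dentate gyrus, moved with it: the 8 listed genes summed to 480, 357 and 1129 CPM in SPS replicates 1 to 3 and to 375, 127 and 1146 CPM in Control replicates 1 to 3. Of these 8, Dsp was lower in SPS replicate 3 than in the other SPS libraries, and Lct was highest in Control replicate 2. Markers of the cerebral cortex also had their highest sums in number 3, at 757 CPM in SPS and 776 CPM in Control. In the other libraries they summed to 315 to 451 CPM in SPS and 393 to 520 CPM in Control. Etv1, Tle4 and Rasgrf2 were highest in number 3, while Lamp5 was lowest there and Cux2 and Ctgf were highest in Control replicate 2. Astrocyte markers summed to 4379 CPM in SPS and 4339 CPM in Control in number 3. In the other libraries they summed to 2409 and 2792 CPM in SPS and 2596 and 2597 CPM in Control. Aqp4, Slc1a3, Sox9 and S1pr1 were highest in number 3. Gfap was highest in SPS replicate 2, and within Control Gja1 was highest in replicate 2. Aldh1l1 was lowest in number 3, at 9.88 CPM in SPS and 9.68 CPM in Control. The sums of thalamus and habenula markers were also highest in number 3, at 172 CPM in SPS and 162 CPM in Control. In the other libraries they summed to 107 and 126 CPM in SPS and 78.9 and 99.4 CPM in Control. Plekhg1 made up most of the sums in number 3, at 122 CPM in SPS and 121 CPM in Control. Rora was also highest in number 3, while Prkcd and Tcf7l2 were highest in number 2 (chosen after their values were seen). The part of these markers in the level of Adra1a was not tested. In bulk tissue, fewer cells of a type and less RNA per cell cannot be told apart.

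Adra1b (ENSRNOG00000060087, chromosome 10, 29392762 to 29450644), the α1B receptor, had 0.460, 0 and 0.397 FPKM in SPS replicates 1 to 3, against 0.532, 4.34 and 0.235 FPKM in Control replicates 1 to 3. Control replicate 2 alone stood high, with 59 of the 97 reads of the gene. Adra1b had too few reads to pass the expression filter of edgeR and has no main test. An exact permutation test on log2(FPKM + 1), two-sided, gave p = 0.4, where 0.1 is the smallest possible. No fold is given for the pair numbered 2, where SPS is listed at 0. In the pairs numbered 1 and 3 the log2 CPM differences were −0.20 and 0.53.

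**Figure D1:**
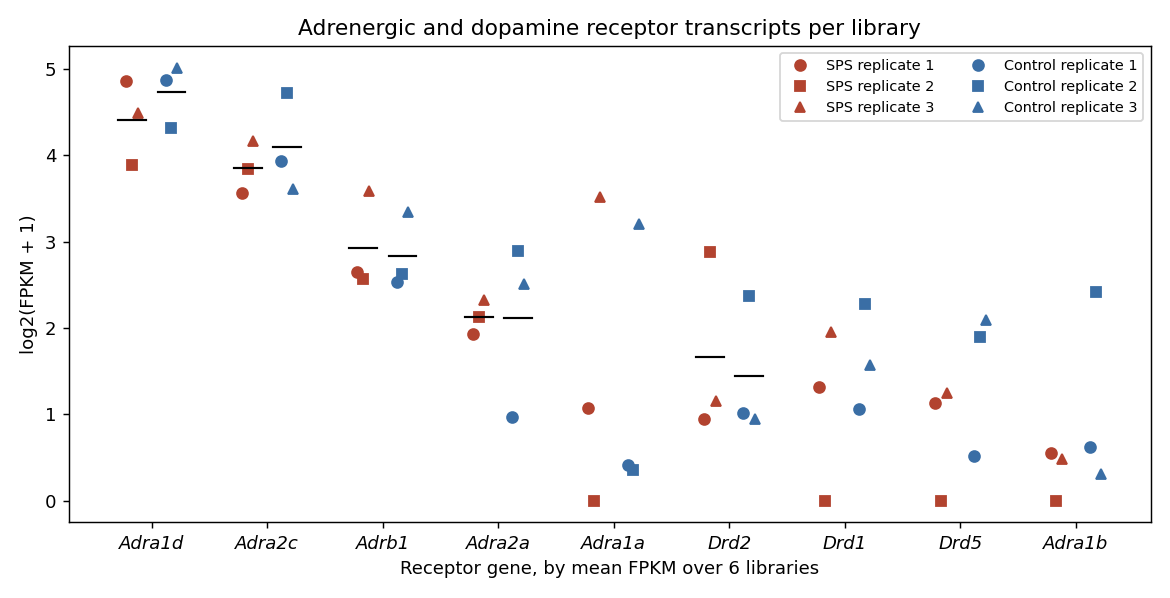
Levels of the 9 receptor transcripts as log2(FPKM + 1) in each library, with SPS in red left of Control in blue, a marker shape for each replicate number, and black bars for group means of genes above 0 in every library. Adra1d and Adra2c stand above the other genes, Adra1a is high in both libraries numbered 3, and Drd1, Drd5, Adra1a and Adra1b are at 0 in SPS replicate 2.

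The α2 receptors couple to inhibitory G proteins and include the autoreceptors of noradrenergic fibres. Adra2c (ENSRNOG00000009299, chromosome 14, 80730307 to 80732010) had 10.8, 13.3 and 16.98 FPKM in SPS replicates 1 to 3, against 14.3, 25.5 and 11.3 FPKM in Control replicates 1 to 3. The highest value was in Control replicate 2, and the lowest in SPS replicate 1. The means were 13.7 ± 3.09 FPKM in SPS and 17.02 ± 7.48 FPKM in Control (SD, n = 3 each). The log2 fold change, −0.31 with an SE of 0.43 (edgeR, unadjusted p = 0.497, adjusted p = 1.00), became 0.01 without Control replicate 2. The log2 CPM differences of the pairs were −0.44, −0.93 and 0.54 for numbers 1, 2 and 3.

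Adra2a (ENSRNOG00000047545, chromosome 1, 274766283 to 274769081), the α2A receptor, had 2.82, 3.35 and 4.01 FPKM in SPS replicates 1 to 3, a narrow range, against 0.951, 6.44 and 4.69 FPKM in Control replicates 1 to 3. All SPS values lay inside the Control range. The means were 3.39 ± 0.598 FPKM in SPS and 4.02 ± 2.80 FPKM in Control (SD, n = 3 each), and the log2 fold change was −0.25 ± 0.72 (SE; edgeR, unadjusted p = 0.743, adjusted p = 1.00). The pairs went both ways, with log2 CPM differences of 1.44, −0.92 and −0.27 for numbers 1, 2 and 3. With the replicate number as a block the log2 fold change was 0.08 and without Control replicate 2 it was 0.16, so the direction depends on these choices.

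Adrb1 (ENSRNOG00000017002, chromosome 1, 277537585 to 277538985), the β1 receptor, is the stimulatory receptor for noradrenaline in this set. It had 5.26, 4.91 and 11.04 FPKM in SPS replicates 1 to 3, against 4.81, 5.17 and 9.12 FPKM in Control replicates 1 to 3. Each SPS library lay close to the Control library of the same number, and both libraries numbered 3 were high. The means were 7.07 ± 3.44 FPKM in SPS and 6.36 ± 2.39 FPKM in Control (SD, n = 3 each). The pairs differed by 0.09, −0.07 and 0.22 on the log2 CPM scale, and the log2 fold change was 0.13 ± 0.64 (SE; edgeR, unadjusted p = 0.847, adjusted p = 1.00). Left-out libraries moved it between −0.40, without SPS replicate 3, and 0.52, without Control replicate 3.

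Of the dopamine receptors, Drd1 (ENSRNOG00000023688, chromosome 17, 11101306 to 11103541), the D1 receptor, had 1.49, 0 and 2.86 FPKM in SPS replicates 1 to 3, against 1.095, 3.84 and 1.97 FPKM in Control replicates 1 to 3. The reads were 37, 0 and 38 in SPS and 29, 46 and 22 in Control. SPS was higher in the pairs numbered 1 and 3, by 0.37 and 0.47 on the log2 CPM scale. No fold is given for the pair numbered 2, where SPS was listed at 0 and Control had 46 reads. The log2 fold change was −0.59 ± 1.30 (SE; edgeR, unadjusted p = 0.660, adjusted p = 1.00). It was −0.02 without SPS replicate 2 and 0.45 without both libraries numbered 2. The mean of the other 5 libraries predicted 20.9 reads of Drd1 in SPS replicate 2, where 0 were listed.

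Drd5 (ENSRNOG00000005338, chromosome 14, 77220579 to 77222006), which encodes the other D1-class receptor, had 1.19, 0 and 1.38 FPKM in SPS replicates 1 to 3, against 0.433, 2.73 and 3.27 FPKM in Control replicates 1 to 3. It had the fewest reads of the group, 18, 0 and 11 in SPS and 7, 20 and 22 in Control, and it would also be too low to measure at a limit of 20 reads. Control replicate 1, the deepest library, fell below both covered SPS libraries. The log2 fold change, −1.26 ± 1.38 (SE; edgeR, unadjusted p = 0.390, adjusted p = 1.00), was the largest in size among the 8 tested receptors and also had the smallest p. It was −0.71 without SPS replicate 2. The pair numbered 1 was 1.098 higher in SPS and the pair numbered 3 was 1.18 lower on the log2 CPM scale, while in the pair numbered 2 SPS was listed at 0 and Control had 20 reads.

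Drd2 (ENSRNOG00000008428, chromosome 8, 53678777 to 53743642), the inhibitory D2 receptor, had 0.925, 6.36 and 1.23 FPKM in SPS replicates 1 to 3, against 1.02, 4.18 and 0.928 FPKM in Control replicates 1 to 3. It was the only receptor with its highest level in SPS replicate 2, and Control replicate 2 followed. With 26, 64 and 19 reads in SPS and 31, 59 and 13 in Control, the libraries numbered 2 held the most reads although both had less than the depth of either library numbered 1. The means were 2.84 ± 3.05 FPKM in SPS and 2.04 ± 1.85 FPKM in Control (SD, n = 3 each). The log2 fold change, 0.35 with an SE of 0.98 (edgeR, unadjusted p = 0.731, adjusted p = 1.00), became −0.89 without SPS replicate 2 and 1.29 without Control replicate 2. Within pairs the log2 CPM differences were −0.18, 0.49 and 0.23. Markers of meningeal fibroblasts, the connective cells of the brain's coverings, were high in the same libraries: the 7 listed genes in the table summed to 231, 3599 and 474 CPM in SPS replicates 1 to 3 and to 296, 5637 and 225 CPM in Control replicates 1 to 3. Ptgds made up most of the sums in number 2, at 2259 CPM in SPS and 4719 CPM in Control. Col3a1 was lower in SPS replicate 2 than in SPS replicate 3, at 14.4 against 26.9 CPM. The rest of the 7 were highest in number 2 in both groups. The sums of vascular and microglial markers were also highest in the libraries numbered 2, though their members did not all move together. Endothelial markers summed to 228 CPM in SPS and 287 CPM in Control there, against 100.2 and 129.7 CPM in the other SPS and 114 and 134 CPM in the other Control libraries. Mural cell markers summed to 213 CPM in SPS and 251 CPM in Control there, against 111 and 163 CPM in the other SPS and 124 and 133 CPM in the other Control libraries. Microglial markers summed to 325 CPM in SPS and 363 CPM in Control there. In the other libraries they summed to 211 and 223 CPM in SPS and 222 and 260 CPM in Control. Cldn5, Acta2, Tagln, C1qa and C1qb of these lists were highest in number 2. Kcnj8 was at 0 in SPS replicate 2, and Cdh5 was lower there than in SPS replicate 3, at 10.6 against 18.5 CPM. Rgs5 was highest in number 3, and Cx3cr1 was lowest in number 2 (all chosen after their values were seen). Markers of striatal projection neurons, which carry Drd2 in the striatum, summed to 329, 641 and 546 CPM in SPS and to 342, 448 and 621 CPM in Control, and Isl1 of that list was at 0 in all 6 libraries. Its members did not move together: in SPS replicate 2 Ppp1r1b was the highest of the 6 libraries, at 408 CPM, while Adora2a, Tac1, Foxp1 and Gpr6 were at 0, and in Control replicate 2 Penk and Bcl11b were the lowest (chosen after their values were seen). The part of these cells in the level of Drd2 was not tested.

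**Figure D2:**
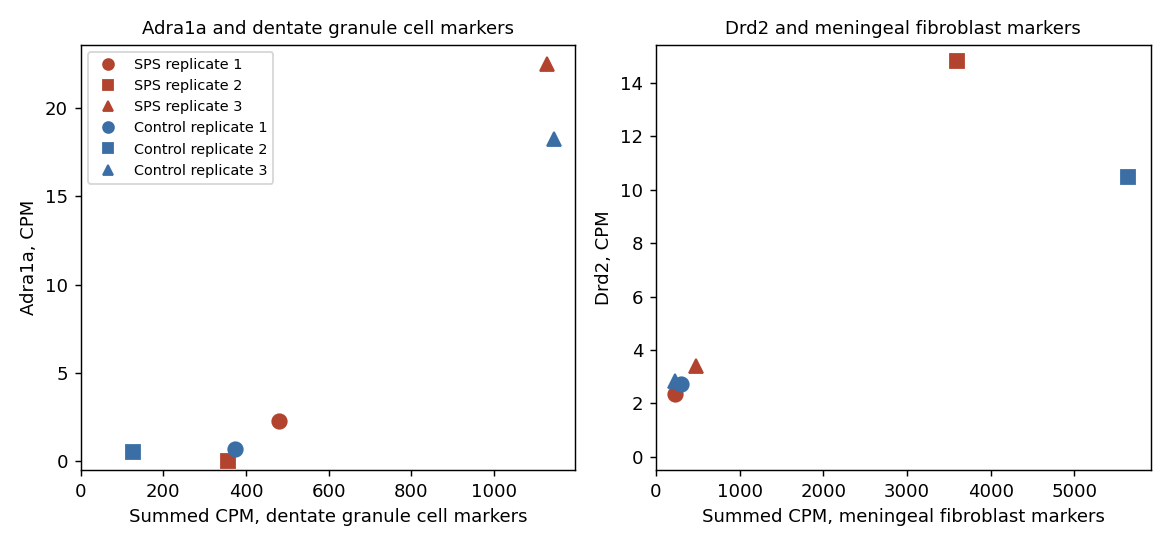
CPM of Adra1a against the summed CPM of dentate granule cell markers (left) and CPM of Drd2 against the summed CPM of meningeal fibroblast markers (right), with 1 point per library, SPS in red and Control in blue. Adra1a is above 18 CPM only in the libraries numbered 3, which have the highest dentate sums, and Drd2 is above 10 CPM only in the libraries numbered 2, which have the highest meningeal sums.

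**Figure D3:**
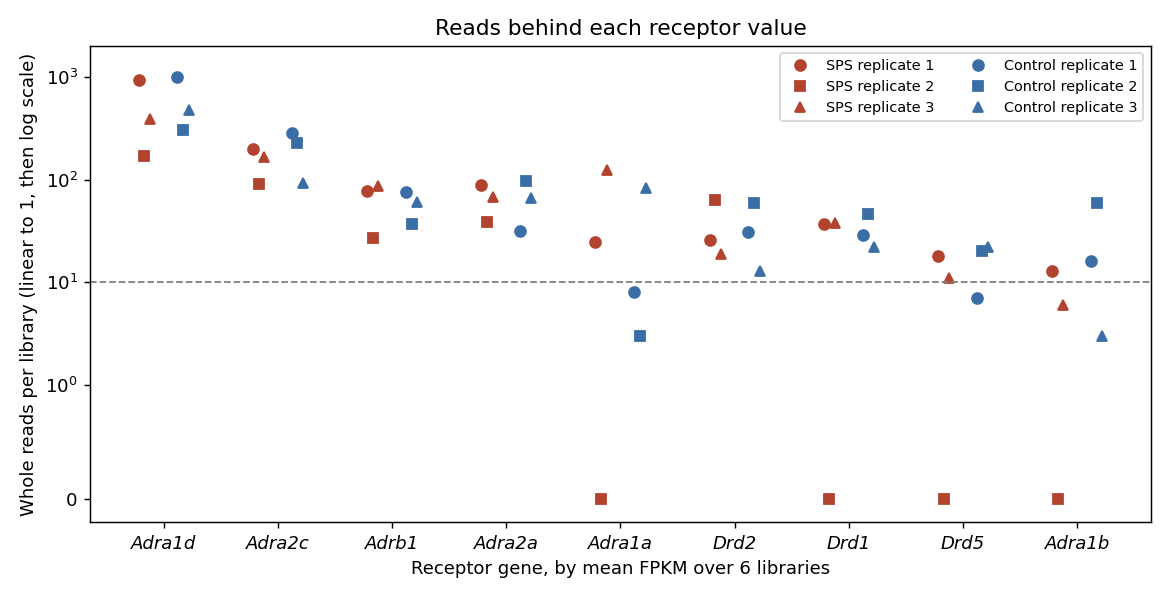
Whole reads behind each receptor value in each library, on an axis that is linear up to 1 and logarithmic above it, with SPS left of Control and a dashed line at 10 reads. Adra1d has at least 169 reads in every library, while Adra1a and Adra1b fall under the line in 3 libraries each.

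Between genes, levels can be set side by side in FPKM, which is scaled to length. The order of mean FPKM over the 6 libraries was Adra1d (23.7), Adra2c (15.4), Adrb1 (6.72), Adra2a (3.71), Adra1a (3.40), Drd2 (2.44), Drd1 (1.88), Drd5 (1.501) and Adra1b (0.993). The ranges of each pair of neighbours in this order overlapped over the 6 libraries. Compared within libraries, Adra1d was above Adra2c in 5 of 6 libraries and Adra2c above Adrb1 in all 6, whereas Adra1a was above Drd2 in 3 of 6. Adra1d made up 53.9%, 33.0% and 30.8% of the summed FPKM of the 9 receptors in SPS replicates 1 to 3, and 54.7%, 26.5% and 44.2% in Control replicates 1 to 3. Drd1 and Drd5 together made up 5.12%, 0% and 6.08% in SPS and 2.95%, 9.21% and 7.36% in Control.

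The genome sequence just before the transcription start is shown for Adra1d and Adra2c, the most abundant receptors, and for Drd2 and Drd5, low ones. Drd2 had its highest level in SPS replicate 2, where Drd5 was listed at 0 with only 10.2 reads predicted. Each line gives the 250 bases upstream of the annotated start on the gene's strand, 5′ to 3′, from RefSeq in build GRCr8, with capitals marking the GC box GGGCGG, a site bound by Sp-family factors, on either strand.
Adra1d (chr3:139262332-139262581, minus strand): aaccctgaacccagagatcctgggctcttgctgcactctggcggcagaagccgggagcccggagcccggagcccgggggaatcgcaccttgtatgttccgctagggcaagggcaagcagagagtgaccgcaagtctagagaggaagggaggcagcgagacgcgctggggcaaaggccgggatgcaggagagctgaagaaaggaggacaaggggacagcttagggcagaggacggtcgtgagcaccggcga
Adra2c (chr14:79697477-79697726, minus strand): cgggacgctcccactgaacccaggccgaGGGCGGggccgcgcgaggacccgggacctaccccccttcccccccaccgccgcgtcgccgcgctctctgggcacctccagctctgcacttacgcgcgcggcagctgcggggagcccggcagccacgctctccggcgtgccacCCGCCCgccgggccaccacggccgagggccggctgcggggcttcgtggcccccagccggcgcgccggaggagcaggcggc
Drd2 (chr8:58605153-58605402, plus strand): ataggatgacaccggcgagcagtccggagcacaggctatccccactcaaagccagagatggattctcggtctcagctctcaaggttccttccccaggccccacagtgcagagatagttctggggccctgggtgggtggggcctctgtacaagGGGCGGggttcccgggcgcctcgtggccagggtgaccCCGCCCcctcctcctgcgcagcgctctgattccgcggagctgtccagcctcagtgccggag
Drd5 (chr14:76703345-76703594, minus strand): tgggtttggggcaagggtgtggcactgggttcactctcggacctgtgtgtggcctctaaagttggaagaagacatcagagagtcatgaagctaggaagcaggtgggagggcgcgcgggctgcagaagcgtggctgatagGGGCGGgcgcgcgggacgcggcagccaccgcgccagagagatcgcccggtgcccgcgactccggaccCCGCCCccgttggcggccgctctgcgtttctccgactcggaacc
Upstream windows were matched for 8 of the 9 receptors. GC boxes stood in those of Adra2c, Drd2 and Drd5, with 2 each, and in 30.5% of all 33469 promoter windows of this length. The Adra2c window was 80.4% G and C, the Adra1d window 64.0%, the Drd2 window 66.0% and the Drd5 window 67.2%, against a median of 51.2% over all windows. The TATA box TATAAA, the cyclic AMP response element TGACGTCA and the glucocorticoid receptor half-site AGAACA were found on neither strand in the 8 receptor windows, and in 12.9%, 1.59% and 17.5% of all windows. The cyclic AMP half-site TGACG, which TGACGTCA contains, stood in the window of Adrb1 alone and in 18.2% of all windows. These matches describe letters only and do not show that a factor binds.

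Over the group, 0 of the 8 tested receptors passed edgeR's test at an adjusted p under 0.05, beside 0% of the 12441 genes tested, and the same count of 0 was given by DESeq2 and by limma on log2(FPKM + 1). At an unadjusted p under 0.05 the receptors numbered 0 in all 3 tools, beside 0.338% of all tested genes in edgeR (42 genes), 210 genes in DESeq2 and 65 in limma. A log2 fold change below 0 was found for 5 of the 8 receptors, beside 52.1% of all tested genes. The median log2 fold change of the 8 was −0.28, against −0.02 over all tested genes. The groups did not overlap in 0 of the 9 receptors, beside 2.94% of tested genes: 1.54% with SPS wholly above Control and 1.4% with SPS wholly below. SPS was higher in all 3 pairs for 0 of the 8 tested receptors, beside 11.6% of tested genes. By exact permutation of the samples on log2(FPKM + 1), two-sided, p lay between 0.3 and 1 for the 9 receptors, where 0.1 is the smallest p that 3 against 3 allows. These p-values do not show that the levels were alike: the SE of the log2 fold change ran between 0.42 for Adra1d and 1.81 for Adra1a, with a median of 0.85, against 0.56 over all tested genes.

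**Figure D4:**
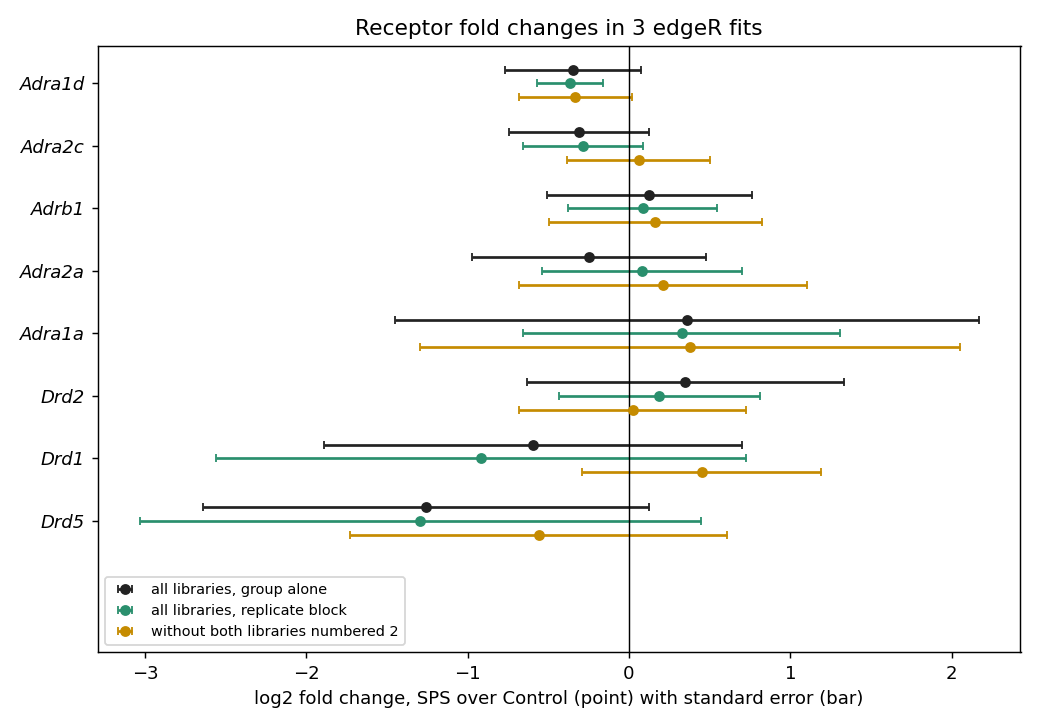
Log2 fold change, SPS over Control, of the 8 tested receptors with its SE in 3 edgeR fits: all libraries with group alone, all libraries with replicate number as a block, and without both libraries numbered 2. Adra1d lies between −0.36 and −0.33 in these fits, whereas Drd1, Adra2a and Adra2c lie on both sides of 0.

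The 3 same-numbered pairs were also set side by side, beginning with number 2. Over the 5 tested receptors with reads in both libraries numbered 2 the median log2 CPM difference was −0.46, with 4 of 5 below 0, beside a median of −0.03 over the 11341 tested genes with reads in both. With the listed zeros of Drd1, Drd5 and Adra1a kept in, the median of the 8 was −0.93, with 7 of 8 below 0, against medians of 0.23 in both the pair numbered 1 and the pair numbered 3, with 3 of 8 below 0 in each. Over all tested genes the medians were 0.01, −0.10 and 0.00 for numbers 1, 2 and 3, and 54.4% of genes were below 0 in number 2. The standard deviation of the pair differences across all tested genes was 1.64 in number 2, or 1.14 over genes with reads in both libraries, against 0.47 and 0.66 in numbers 1 and 3, so differences in that pair were wider for genes in general. Drd2 was the receptor that lay above 0 in number 2.

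**Figure D5:**
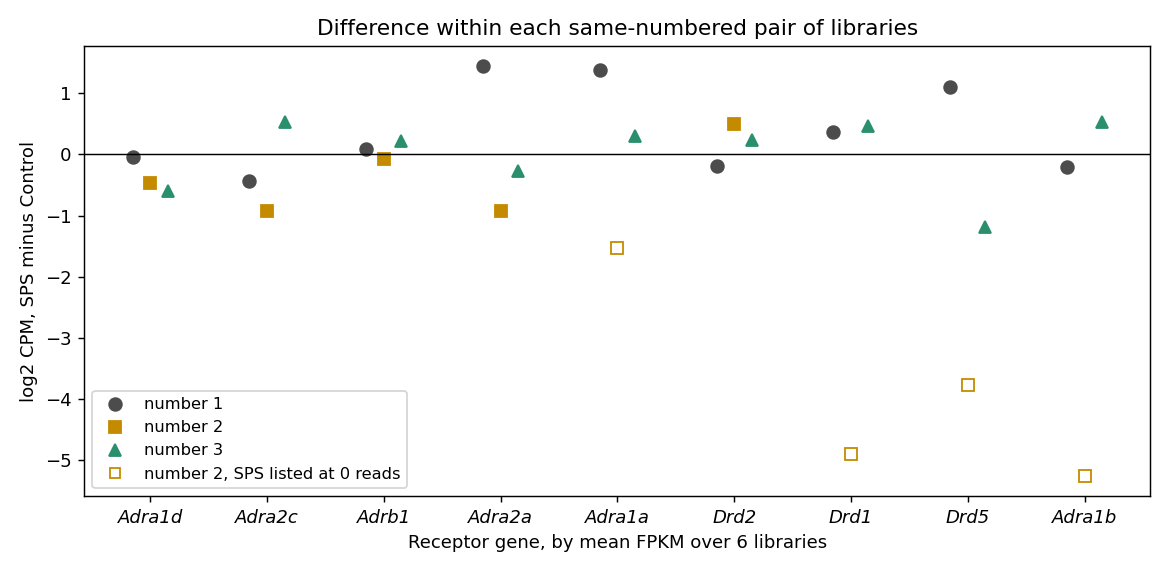
Log2 CPM difference, SPS minus Control, within each same-numbered pair of libraries for the 9 receptors, with open squares where the SPS library is listed at 0 reads and the value depends on the prior count. The squares of number 2 reach below −3 for Drd1, Drd5 and Adra1b, while numbers 1 and 3 stay between −1.18 and 1.44.

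Genes with the library pattern closest to each measured receptor were found by the root-mean-square difference of mean-centred log2 CPM over the 6 libraries, among 11879 genes. For Adra1d they were Vps53 and Pknox2, at 0.07 and 0.10, against a median of 0.76 over the genes compared. For Adra2c they were Kcnj4, an inward-rectifier potassium channel, and Dirc2, at 0.12 and 0.13. For Adrb1 they were Ipo7 and Igsf11, at 0.08 each, and for Adra2a they were Col12a1 and Fam63b, at 0.22 and 0.23. The nearest to Drd2 were Lamb2, a laminin subunit of basement membranes, and Pear1, at 0.19 and 0.21. Lamb2 had 41.8, 239 and 57.1 CPM in SPS replicates 1 to 3 and 50.5, 120 and 48.4 CPM in Control replicates 1 to 3. Cd55 and Ntn3 were nearest to Drd1, at 0.18 and 0.25, and Slc6a5 and Mettl11b to Drd5, at 0.26 and 0.27. Of these, Cd55, Ntn3, Slc6a5 and Mettl11b were also at 0 in SPS replicate 2. With 6 libraries these are descriptions of shape. Among the 7 measured receptors, with Adra1a and Adra1b left out, the closest were Adra1d and Adrb1 at 0.52. The farthest of these 7 were Drd1 and Drd2 at 2.31, a distance that includes the listed 0 of Drd1 in SPS replicate 2.

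Of receptors outside the 9, 5 more were too low to measure. The β3 receptor Adrb3 had 35 reads in all 6 libraries together, Drd4 8, Adra2b 6, Drd3 1 and the trace amine receptor Taar1 0. None of these 5 passed the expression filter.

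Genes that make, move and break down catecholamines were mostly low, and 15 of the 24 listed were tested. Of these, 0 rose and 0 fell, either at an adjusted p or at an unadjusted p under 0.05 in edgeR, and the median log2 fold change was −0.28. Th, the rate-limiting enzyme of catecholamine synthesis, was at most 0.718 CPM in SPS and 0.788 CPM in Control libraries, and the noradrenaline transporter Slc6a2 was at 0 in all 6. Slc29a4, a low-affinity monoamine transporter, was at 31.6 ± 23.0 CPM in SPS and 15.7 ± 9.36 CPM in Control (SD, n = 3 each), and its log2 fold change of 1.00 became −0.20 without both libraries numbered 2. Adh5, an alcohol dehydrogenase, was at 40.7 ± 12.5 CPM in SPS and 52.9 ± 16.1 CPM in Control.

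Downstream of the receptors, 27 genes of G protein subunits had a median log2 fold change of 0.02, 35 genes of cyclic AMP and protein kinase A signalling −0.06, 14 of phospholipase C and protein kinase C −0.04, and 27 of receptor kinases, arrestins and RGS proteins −0.09. In these 4 lists 0 genes rose or fell at an adjusted or an unadjusted p under 0.05 in edgeR. The genes with the smallest p were Gng8, a γ subunit, Rgs4, which speeds G protein shut-off, and Grk5, a receptor kinase. Gng8 was at 22.9 ± 30.0 CPM in SPS and 4.79 ± 4.05 CPM in Control (SD, n = 3 each, unadjusted p = 0.113 in edgeR), with 57.4 CPM in SPS replicate 2. Its unadjusted p was 0.0497 in DESeq2 and, without SPS replicate 3, 0.0384 in edgeR, with adjusted p between 0.967 and 1.00 over its alternatives, and its log2 fold change of 2.22 became 0.22 without SPS replicate 2. Rgs4 was at 71.8 ± 15.9 CPM in SPS and 153 ± 158 CPM in Control (unadjusted p = 0.158 in edgeR), with 336 CPM in Control replicate 2. Grk5 was at 19.2 ± 9.34 CPM in SPS and 10.2 ± 6.41 CPM in Control (unadjusted p = 0.201 in edgeR) and was higher in SPS in all 3 pairs. In these genes too the extreme values of Gng8 and Rgs4 came from libraries numbered 2. The other genes named by the same rule were Gna12 and Gng13, Adcy7, Akap12 and Pde2a, Dgkz and Itpr3, and Rgs16, with log2 fold changes between −1.61 for Adcy7 and 0.45 for Gna12.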

How the data were processed

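The deposited table gives, per the file headers, an FPKM and an estimated count for every gene in every library, both made by the authors. CASAVA 1.8 and HISAT2 are named in the submitters' processing notes, as is hg19, although the identifiers are rat. The rat build, annotation, quantifier and use of strand in counting: not given in the sources used here. Per the labels' protocols, RNA was depleted of ribosomal RNA and libraries were stranded.

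The deposited estimated counts were whole multiples of 1 step per library, from 0.614 to 1.79, for 99.3% to 99.6% of values above 0, within 0.05 reads. They were divided by that step and rounded to whole reads. Deposited starts count from 0, since end minus start was a whole number of codons in 1032 of 1051 short olfactory receptor models, so starts are printed 1 higher, without a build.

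Reads were tested with edgeR 4.0.16 in R 4.3.3 (TMM scaling, filterByExpr, quasi-likelihood fit on group alone, two-sided, Benjamini-Hochberg over 12441 genes), after a test of the scripts on simulated data. CPM are TMM-scaled. The SE of a log2 fold change is its size over the square root of F. A value from a library at 0 depends on the prior count. Alternatives were a replicate block, DESeq2 1.42.0, limma 3.58.1 with trend on log2(FPKM + 1), other scalings and filters, and libraries left out.

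Deviations from group means correlated across genes at 0.41, 0.37 and 0.67 between samples of the same number, above the limit of 0.1. Between samples of different number they ran from −0.50 to 0.16. The highest of these, SPS replicate 2 with Control replicate 1, was also above that limit. Pairs were formed by replicate number, and the main fit did not use them. That samples of 1 number go together was read from the data alone, and the labels do not say what a number shares.

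Receptors, lists and tests were chosen with earlier results of these data known. Besides the receptors, the text names the 3 tested genes of smallest p in each pathway list, the 2 nearest genes in pattern, and marker sums; a few of these genes are not reported here.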

Additional observations from a re-analysis of the deposited data

How the results depend on the processing

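In all 18 alternatives 0 genes and 0 receptors passed at an adjusted p under 0.05, and 0 receptors passed at an unadjusted p under 0.05. The 42 genes at an unadjusted p under 0.05 became 172 with the replicate block, 210 with DESeq2, 65 with limma on log2(FPKM + 1), 125 with limma without a filter, 146 with edgeR without a filter and 11 without both libraries numbered 2, and lay between 11 and 230 with 1 library left out. The block changed no call. Adra1d and Drd5 kept a negative log2 fold change in all 18 alternatives. Others changed sign. With the replicate block Adra2a was at 0.078. With limma it was at 0.0046 on log2(FPKM + 1), with or without a filter, and at 0.11 on log2(FPKM + 0.1), where Adra1a was at −0.030. Without both libraries numbered 2, Drd1 was at 0.45, Adra2a at 0.21, Adra2c at 0.060, Slc29a4 at −0.20, Gng13 at 0.24, Akap12 at 0.066, Itpr3 at 0.36, Rgs4 at 0.33 and Rgs16 at 0.11. With 1 library left out the values ran from −0.89 to 1.29 for Drd2, −2.41 to 3.66 for Adra1a, −0.72 to 0.16 for Adra2a, −0.55 to 0.013 for Adra2c, −0.40 to 0.52 for Adrb1, −0.43 to 0.028 for Dgkz, −0.87 to 0.61 for Itpr3 and −1.49 to 0.20 for Rgs4. List medians ran from −0.40 to 0.15 for catecholamine handling (−0.088 without both libraries numbered 2), from −0.0063 to 0.079 for G protein subunits (−0.026 with the block), from −0.37 to 0.14 for cyclic AMP and protein kinase A, from −0.44 to 0.41 for phospholipase C and protein kinase C, and from −0.35 to 0.032 for receptor kinases, arrestins and RGS proteins (−0.028 without both libraries numbered 2). The causes were not tested. At a limit of 5 reads 0 receptors would be too low to measure, and at 20 reads 3, with Drd5 added. Reads per library ran from 0 to 22 for Drd5, 0 to 125 for Adra1a and 0 to 59 for Adra1b.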
